A study of Rattus norvegicus with 19 samples.

Results

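The synapse-organizing genes examined here encode the scaffold proteins of the postsynaptic density and the adhesion molecules that span the synaptic cleft. They were chosen by symbol from a list of 38 such genes, drawn up by their known roles when earlier results of these data were known, and 36 of the 38 matched a symbol in the gene tables, out of 32623 genes in all. Lrrtm1 and Cntnap2 matched no symbol and were not analysed here. All 36 passed the filter on low counts, which left 15440 genes for testing.

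In the postsynaptic density of excitatory synapses, Dlg-family proteins such as PSD-95 bind glutamate receptors and adhesion molecules, Dlgap proteins link them to Shank proteins, and Homer proteins join Shank to metabotropic glutamate receptors. Across the cleft, presynaptic neurexins and the receptor phosphatases Ptprd and Ptprs bind postsynaptic neuroligins, Lrrtm proteins and Il1rapl1, and the secreted cerebellins bridge neurexins to other postsynaptic receptors. Variants in several of these genes, Shank3 and the neuroligins among them, are known from autism and intellectual disability, disorders that are also linked to copy number at the human 16p11.2 region.

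The data were read counts per gene from the hippocampus of male, outbred Sprague Dawley rats, with 1 RNA-seq library per animal. The rat counterpart of the 16p11.2 region, between Sult1a1 and Spn, had been deleted or duplicated in the germ line with CRISPR/Cas9, so every cell of an animal carried the change. The 19 libraries comprised 6 wild-type animals (wt, 2 copies of the region), 4 with the deletion on one chromosome (Del/+, 1 copy), 5 with the duplication on one chromosome (Dup/+, 3 copies) and 4 that carried a deleted and a duplicated chromosome (Del/Dup, 2 copies). The Del/Dup libraries are numbered 2 to 5, as in the labels. The library called wt replicate 5 was wt in its description and Dup/+ in its genotype field. It was kept as wt, and its median log2 difference from the wt mean over 12 genes of the altered region was -0.04, away from the Dup/+ libraries at 0.49 or above. No other allele or drug treatment was named for any group, and the animals were adult.

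Between 16191192 and 38760645 reads per library were assigned to genes. The median log2 difference from the wt mean over the 12 genes of the altered region ranged from -0.04 to 0.03 in the wt libraries. The Del/+ libraries lay between -1.07 and -0.88, the Dup/+ libraries between 0.49 and 0.57 and the Del/Dup libraries between -0.25 and 0.03. All 8 neuronal markers were detected, with summed levels of 8184 to 9530 CPM (reads of a gene divided by the scaled library total, times 1e6) over the libraries. Of 9 markers of hippocampal principal cells, Fibcd1 was at 0 in every library and Spink8 stayed at or below 0.196 CPM, while the other 7 were expressed. Shares of reads aligned to several places were taken over all counts of a library, those outside genes included. Whether such a read was counted once or at each place was not checked. The share differed between groups. It was 40.1 to 47.6% for wt and 45.1 to 50.5% for Dup/+. Del/Dup libraries had 57.8 to 70.7% and Del/+ libraries 41.6 to 76.3%, where replicate 4 held the lowest share and the other 3 libraries lay at 63.9% or above. The gene counts hold uniquely aligned reads alone, and the part of this share in the results below was not tested beyond the values given with them.

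Promoter sequences in the RefSeq table (build GRCr8, 250 bases before to 50 after the annotated start) matched 27 of the 36 genes by symbol. Of these 27 promoters, 1 lies on chromosome 1, where the altered region is. That count leaves out the members without a match, Nrxn2, Shank1 and Shank2 among them, whose chromosomes were not looked up. Their median GC content was 62.7%, with a range of 39.3 to 85.3%, against 51.7% over 33469 promoters. Each motif was searched on both strands. The GC box GGGCGG was in 13 of the 27 (48.1%, against 33.1% of all promoters), CCAAT in 11 (40.7% against 37.5%), the E-box CACGTG in 2 (7.41% against 6.42%), TATAAA in 1 (3.7% against 14.2%) and the cAMP response element TGACGTCA in 2 (7.41% against 1.83%). No motif of this set contains another. These are matches of letters only. The sequences of 4 genes described below are shown, 3 with lower values in Del/+ than in wt and Cbln2 with higher ones, and GC boxes, CCAAT and the cAMP response element are in capitals on whichever strand they were read. The Dlgap3 promoter lies at chr5:144800015-144800314 on the plus strand, Shank3 at chr7:122448073-122448372 on the plus strand, Ptprs at chr9:1394042-1394341 on the minus strand and Cbln2 at chr18:82215953-82216252 on the plus strand.
Dlgap3: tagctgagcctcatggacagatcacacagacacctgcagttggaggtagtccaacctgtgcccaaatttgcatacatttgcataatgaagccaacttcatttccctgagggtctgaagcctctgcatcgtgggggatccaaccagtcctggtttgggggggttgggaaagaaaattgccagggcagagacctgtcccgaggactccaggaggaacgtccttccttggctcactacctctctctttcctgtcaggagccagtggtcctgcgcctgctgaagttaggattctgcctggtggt
Shank3: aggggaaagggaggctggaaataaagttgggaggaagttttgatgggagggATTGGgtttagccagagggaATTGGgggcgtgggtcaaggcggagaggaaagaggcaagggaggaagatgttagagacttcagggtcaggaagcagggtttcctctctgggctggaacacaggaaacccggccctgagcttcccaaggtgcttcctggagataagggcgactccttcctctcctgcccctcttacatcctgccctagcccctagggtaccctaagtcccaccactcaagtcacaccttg
Ptprs: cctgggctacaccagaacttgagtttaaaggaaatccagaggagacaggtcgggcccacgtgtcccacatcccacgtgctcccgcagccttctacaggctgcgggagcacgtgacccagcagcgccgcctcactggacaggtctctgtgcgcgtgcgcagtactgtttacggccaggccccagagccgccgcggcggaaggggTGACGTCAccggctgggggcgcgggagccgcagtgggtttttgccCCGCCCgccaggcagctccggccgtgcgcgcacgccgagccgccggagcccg
Cbln2: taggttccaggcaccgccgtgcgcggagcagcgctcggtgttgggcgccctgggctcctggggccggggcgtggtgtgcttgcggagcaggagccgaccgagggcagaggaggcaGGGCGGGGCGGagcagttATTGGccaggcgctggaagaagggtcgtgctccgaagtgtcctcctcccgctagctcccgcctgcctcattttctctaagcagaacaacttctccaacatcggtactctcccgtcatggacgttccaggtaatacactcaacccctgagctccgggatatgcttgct
None of the 3 motifs was found in the Dlgap3 window, CCAAT occurred in that of Shank3, the cAMP response element and a GC box in that of Ptprs, and GC boxes and CCAAT in that of Cbln2.

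The question for each comparison was whether the dosage of the altered region changed the transcript levels of these genes. No member passed the adjusted threshold in any genotype with edgeR, but fitted values lay below wt for most members in each genotype. Their medians were further below wt in Del/+ and Del/Dup than in Dup/+. The median log2 fold change of the 36 genes against wt was -0.12 in Del/+, -0.04 in Dup/+ and -0.10 in Del/Dup, while the median over all 15440 genes was 0.00 in Del/+ and in Del/Dup and -0.00 in Dup/+. The fitted change was below 0 for 27 of 36 members in Del/+ (49.8% of all genes), for 26 in Dup/+ (50.8% of all genes) and for 28 in Del/Dup (49.7% of all genes). The term for over 50% multiply aligned reads moved the medians of Del/+ and Del/Dup to -0.19 each. Within a genotype, that term rests on Del/+ replicate 4 and Dup/+ replicate 4, which lay across the cut from the rest of their group. Leaving out wt replicate 1 moved the median of Del/Dup to -0.06, and leaving out wt replicate 5 or Dup/+ replicate 4 moved that of Dup/+ to -0.02 or -0.06. With wt replicate 5 counted as Dup/+, the medians were -0.10, -0.01 and -0.09 and 0 members were called by edgeR (0.525%, 0.0777% and 0.369% of all genes). The 3 comparisons share the wt libraries, so they are not separate observations of wt. In whole tissue, fewer cells of a type and less RNA per cell cannot be told apart.

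**Figure D1:**
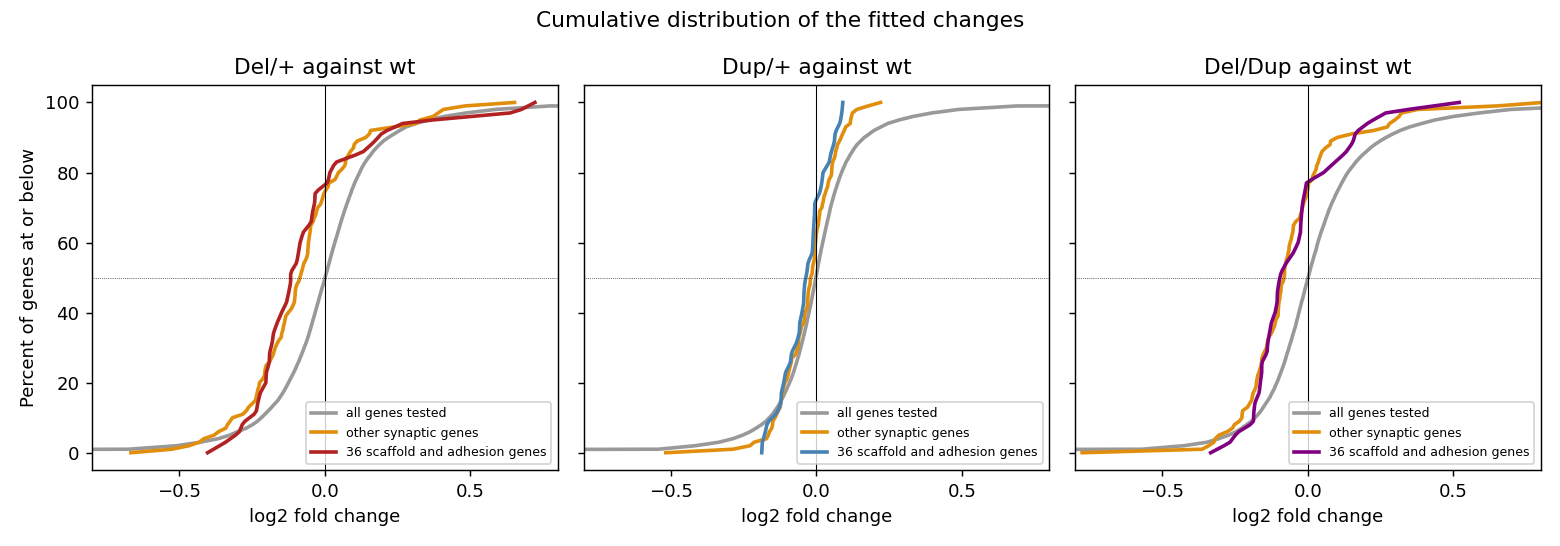
Cumulative distribution of the fitted log2 fold change (horizontal axis) in percent of genes (vertical axis) for the 36 scaffold and adhesion genes, 127 other synaptic genes and all 15440 genes tested, 1 panel per genotype against wt. The curve of the 36 genes crosses 50% at -0.12 in Del/+, -0.04 in Dup/+ and -0.10 in Del/Dup, and that of all genes at 0.00 or -0.00. The horizontal axis is clipped at its ends.

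A gene was called where the Benjamini-Hochberg adjusted p of edgeR's quasi-likelihood test over all 15440 genes was below 0.05. In Del/+ against wt, 0 of 36 members were called (0.771% of all genes were). At an unadjusted p below 0.05, 16 members were lower (9.68% of all genes) and 4 were higher (8.77%). DESeq2 gave an adjusted p to 34 members in this comparison and called 6 of them, all lower (6.93% of the genes with an adjusted p): Nrxn2, Dlgap3, Camk2a, Dlgap2, Ptprs and Shank3. With edgeR, 3 members were called in Del/+ with a term for over 50% multiply aligned reads (0.771% of all genes) and 3 without Del/Dup replicate 2 (2.16%), and 2 each without Del/Dup replicate 3 (1.80%), wt replicate 4 (0.988%) or Del/+ replicate 1 (1.68%). Whether any member is called in Del/+ thus depended on the tool, the term and single libraries. The term itself rests on Del/+ replicate 4 and Dup/+ replicate 4, which lay across the cut from the rest of their group.

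In Dup/+ against wt, edgeR called 0 of 36 (0.272% of all genes) and DESeq2 0 (0.518%). Unadjusted p was below 0.05 for 2 lower members, Nrxn2 and Iqsec2 (4.48% of all genes), and for 0 higher members (4.46%). In Del/Dup against wt, edgeR called 0 (0.0907% of all genes) and DESeq2 0 (1.19%). The edgeR share over all genes rested on single libraries: it became 1.38% when Del/Dup replicate 3 was left out, 0.591% when wt replicate 5 was and 0.0128% when Del/Dup replicate 4 was, with 0 members called each time. Here 13 members were lower at an unadjusted p below 0.05 (8.06% of all genes) and 3 were higher (8.15%).

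The genotypes were also compared with each other. For Del/+ against Dup/+, the member median was -0.07, edgeR called 0 (0.784% of all genes), DESeq2 called 0 (1.73%), and at an unadjusted p below 0.05 there were 9 lower (6.93%) and 2 higher members (6.54%). Leaving out single libraries moved the edgeR share to between 0.385% (without Del/+ replicate 2) and 1.25% (without Del/Dup replicate 2), with 0 members called. For Del/+ against Del/Dup, the median was -0.02, edgeR called 0 (0.175%), DESeq2 called 0 (0.520%), and 1 member, Shank2, had an unadjusted p below 0.05 (8.48% of all genes). A test for any difference among the 4 genotypes called 0 members with edgeR (0.823% of all genes) and 3 with DESeq2, Dlgap3, Camk2a and Nrxn2 (4.57%). Its unadjusted p in edgeR was below 0.05 for 16 members (18.9% of all genes). Without Del/+ replicate 2, the edgeR share called in this test was 0.391% with 0 members. Without Del/Dup replicate 3, it was 2.67% with 2 members.

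Few members separated completely from wt. All 4 Del/+ libraries lay below the wt range for Dlg3, Nrxn2 and Ptprs (3 of 36 members, 2.70% of all genes), and above it for 0 members (2.23%). In Dup/+ the counts were 0 below (0.499%) and 0 above (0.674%), and in Del/Dup 0 below (1.22%) and 0 above (1.33%).

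**Figure D2:**
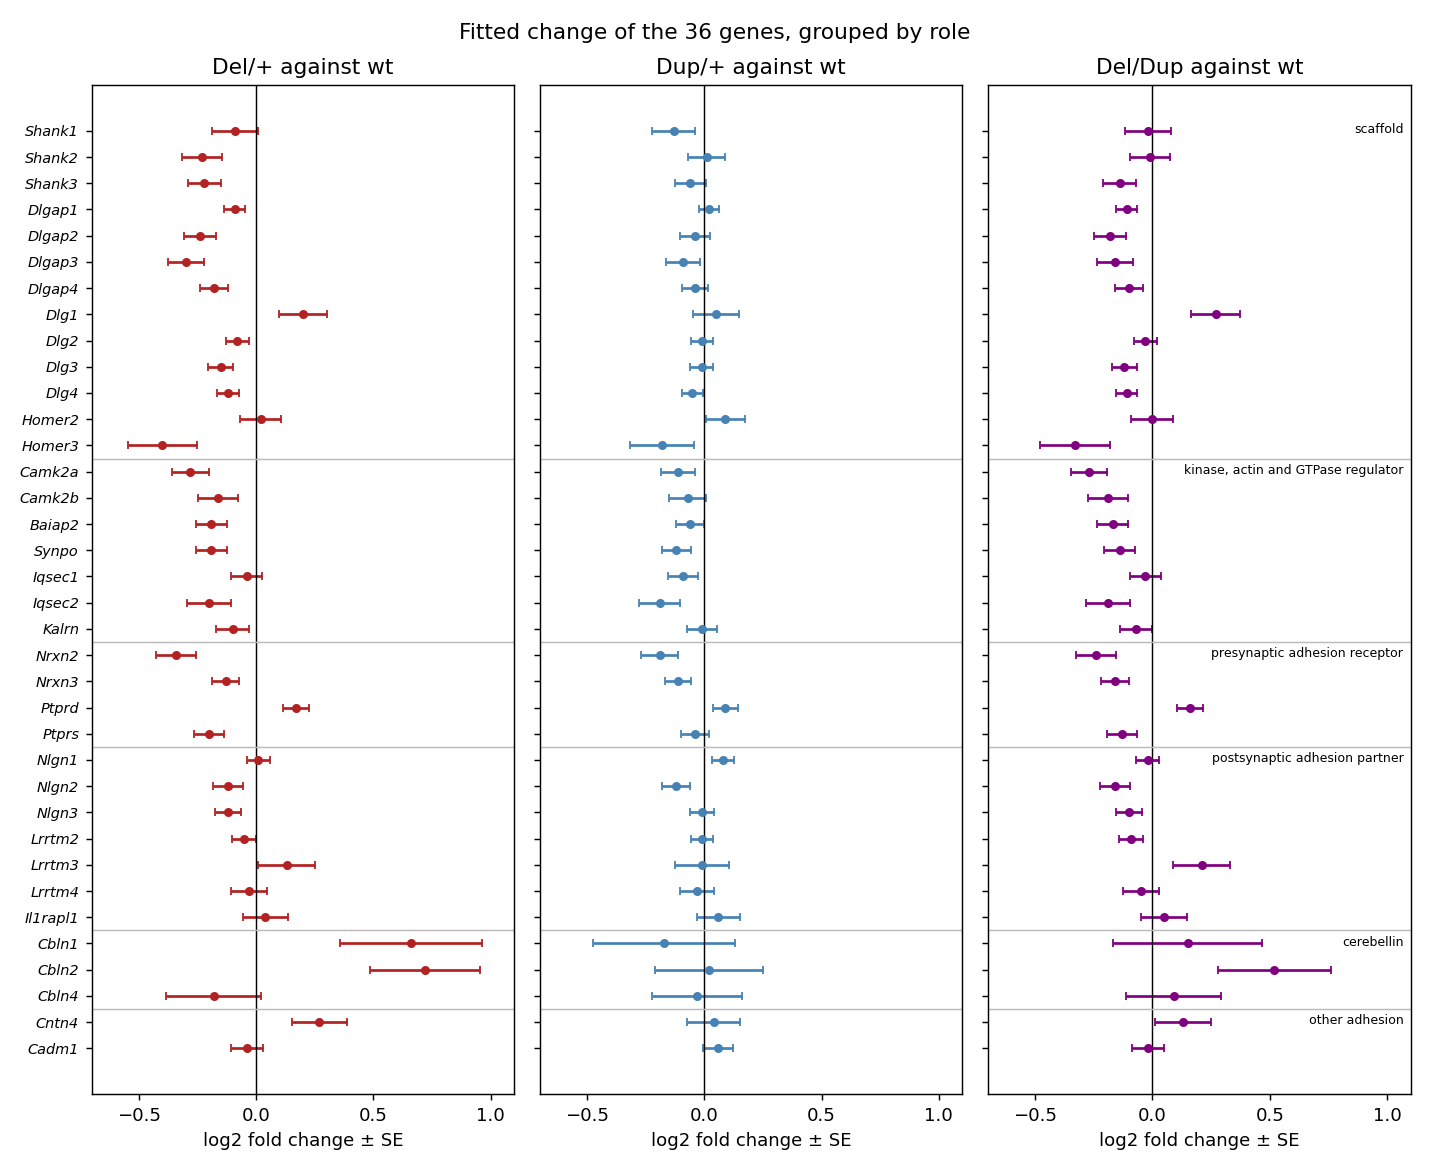
Fitted log2 fold change ± SE (horizontal axis) of each of the 36 genes (vertical axis), grouped by role, for Del/+ (n = 4), Dup/+ (n = 5) and Del/Dup (n = 4) against wt (n = 6). In Del/+ the points run from -0.40 for Homer3 to 0.72 for Cbln2, and all 7 kinase, actin and GTPase regulators lie below 0 in each panel.

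Among the 13 scaffold genes, 11 had a fitted change below 0 in Del/+, with a median of -0.15, and 8 were lower at an unadjusted p below 0.05 (49.8% and 9.68% of all genes). In Dup/+ the median was -0.04 with 9 below 0 (50.8% of all genes), and in Del/Dup it was -0.11 with 12 below 0 (49.7%).

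Dlgap3 (ENSRNOG00000014302) encodes SAPAP3, the Dlgap protein of excitatory synapses whose loss causes compulsive grooming in mice. Its wt level ranged from 266 to 319 CPM with a median of 303. The Del/+ libraries held 271, 243, 257 and 209 CPM, the Dup/+ libraries 266, 271, 290, 307 and 279, and the Del/Dup libraries 251, 318, 265 and 240. Thus 3 of 4 Del/+ libraries lay below every wt library and replicate 1 just above the lowest of them, while Del/Dup replicate 3 reached the top of the wt range. The mean was 300 ± 18.8 CPM in wt (SD, n = 6) and 245 ± 26.7 in Del/+ (n = 4), a log2 fold change of -0.30 ± 0.0766 (SE) with an adjusted p of 0.0693 by edgeR and 0.0101 by DESeq2. In Dup/+ it was -0.09 ± 0.0715 (edgeR adjusted p = 0.748) and in Del/Dup -0.16 ± 0.0765 (0.301).

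Dlgap2 (ENSRNOG00000012573), a close relative of Dlgap3, ranged from 83.6 to 104 CPM in wt with a median of 98.6. It stood at 81.3, 78.0, 89.1 and 81.3 CPM in Del/+, at 94.7, 90.6, 84.8, 110 and 91.3 in Dup/+ and at 78.5, 92.7, 83.1 and 88.5 in Del/Dup. The lowest wt library overlapped the highest Del/+ library. The log2 fold change in Del/+ was -0.24 ± 0.0687, with an adjusted p of 0.0933 by edgeR and 0.0273 by DESeq2. Dlgap4 and Dlgap1 followed at -0.18 ± 0.0605 and -0.09 ± 0.0447, with edgeR adjusted p of 0.130 and 0.285.

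Shank3 (ENSRNOG00000052296) encodes a scaffold whose haploinsufficiency causes Phelan-McDermid syndrome. In wt it ranged from 389 to 460 CPM with a median of 448. Del/+ libraries had 401, 336, 406 and 352 CPM, Dup/+ libraries 401, 409, 405, 471 and 405, and Del/Dup libraries 353, 454, 392 and 386. Replicates 2 and 4 of Del/+ were below the wt range and replicates 1 and 3 inside it. The change in Del/+ was -0.22 ± 0.0710 (adjusted p = 0.113 by edgeR and 0.0416 by DESeq2), in Dup/+ -0.06 ± 0.0663 and in Del/Dup -0.14 ± 0.0709. Shank2 was at -0.23 ± 0.0834 in Del/+ and -0.01 ± 0.0839 in Del/Dup, and Shank1 at -0.09 ± 0.0975 in Del/+, and edgeR and DESeq2 called neither against wt.

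Of the Dlg family, Dlg3 (SAP102) was the one whose Del/+ range, 270 to 285 CPM, lay wholly below the wt range of 294 to 333 CPM. Its fitted change was -0.15 ± 0.0528 on the log2 scale, at an edgeR adjusted p of 0.143. Dlg4, the gene of PSD-95, was at 718 ± 32.8 CPM in wt and 658 ± 24.5 in Del/+ (-0.12 ± 0.0462, adjusted p = 0.158). Dlg1 (SAP97) lay on the other side, at 0.20 ± 0.104 in Del/+ (0.316) and 0.27 ± 0.104 in Del/Dup (0.222). Its values were highest in Del/Dup replicate 2, with 145 CPM, and in Del/+ replicates 2 and 4, with 118 and 115, against at most 101 in wt. Homer3 had the lowest fitted change of all members in Del/+, -0.40 ± 0.147 (0.150), with libraries from 33.0 to 50.6 CPM against 41.4 to 68.0 in wt, and Homer2 was at 0.02 ± 0.0879.

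The 7 kinase, actin and GTPase regulators of the spine had fitted changes below 0 in each genotype against wt (49.8, 50.8 and 49.7% of all genes in Del/+, Dup/+ and Del/Dup). Their medians were -0.19 in Del/+, -0.09 in Dup/+ and -0.17 in Del/Dup. None was called by edgeR, and DESeq2 called Camk2a in Del/+.

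Camk2a (ENSRNOG00000018712) encodes the alpha subunit of CaMKII, the kinase needed for long-term potentiation, and its mRNA is abundant in dendrites of principal cells. Its level ranged from 1502 to 1862 CPM in wt with a median of 1788. The values were 1502, 1324, 1519 and 1398 CPM in Del/+, 1688, 1613, 1386, 1858 and 1529 in Dup/+ and 1276, 1609, 1379 and 1532 in Del/Dup. One wt library, replicate 4, was as low as the higher Del/+ libraries, and the other 5 lay above all Del/+ libraries. The log2 fold change was -0.28 ± 0.0781 in Del/+, with an adjusted p of 0.0835 by edgeR and 0.0181 by DESeq2, -0.27 ± 0.0781 in Del/Dup (edgeR adjusted p = 0.154) and -0.11 ± 0.0728 in Dup/+ (0.676). Camk2b, the beta subunit that binds actin, was at -0.16 ± 0.0852 in Del/+ and -0.19 ± 0.0853 in Del/Dup. Baiap2 (IRSp53) and Synpo (synaptopodin), which organize spine actin, both stood at -0.19 in Del/+, with SEs of 0.0654 and 0.0660. Iqsec2, an Arf guanine nucleotide exchange factor, was at -0.20 ± 0.0926 in Del/+ and -0.19 ± 0.0869 in Dup/+, whereas Iqsec1 and Kalrn lay within 0.10 of wt on the log2 scale in each genotype.

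The presynaptic adhesion receptors divided. Nrxn2 (ENSRNOG00000021103), the neurexin with the smallest p of any member, ranged from 200 to 256 CPM in wt with a median of 214. The Del/+ libraries had 184, 188, 187 and 146 CPM, the Dup/+ libraries 189, 187, 198, 210 and 198, and the Del/Dup libraries 179, 219, 195 and 163. All 4 Del/+ libraries were below the wt range, as were 4 of 5 in Dup/+ and 3 of 4 in Del/Dup. The mean was 224 ± 23.2 CPM in wt (SD, n = 6) and 176 ± 20.1 in Del/+ (n = 4), a fold of 0.788 and a log2 fold change of -0.34 ± 0.0857, with an adjusted p of 0.0628 by edgeR and 0.00664 by DESeq2. In Dup/+ the change was -0.19 ± 0.0800 (edgeR adjusted p = 0.498) and in Del/Dup -0.24 ± 0.0856 (0.201). Nrxn3 was at -0.13 ± 0.0594, -0.11 ± 0.0557 and -0.16 ± 0.0596 in Del/+, Dup/+ and Del/Dup.

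Ptprs and Ptprd encode receptor tyrosine phosphatases of the same family, and their values lay on opposite sides of wt. Ptprs (ENSRNOG00000047247) ranged from 745 to 815 CPM in wt, with a median of 783, and stood at 729, 636, 744 and 603 in Del/+, 755, 759, 761, 779 and 742 in Dup/+ and 602, 810, 720 and 718 in Del/Dup. Each Del/+ library was below the wt range, replicate 3 only just, and 3 of 4 Del/Dup libraries were too. The change in Del/+ was -0.20 ± 0.0651 (adjusted p = 0.114 by edgeR and 0.0414 by DESeq2), and it was -0.13 ± 0.0650 in Del/Dup.

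For Ptprd (ENSRNOG00000005711) the wt range was 310 to 337 CPM with a median of 328. Libraries of Del/+ had 319, 396, 346 and 397 CPM, those of Dup/+ 341, 331, 345, 353 and 354, and those of Del/Dup 396, 337, 361 and 360. Higher values than in any wt library were seen in 3 Del/+, 4 Dup/+ and 3 Del/Dup libraries. Its log2 fold change was 0.17 ± 0.0553 in Del/+ (edgeR adjusted p = 0.122), 0.09 ± 0.0521 in Dup/+ (0.638) and 0.16 ± 0.0554 in Del/Dup (0.187).

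The 7 postsynaptic adhesion partners lay near wt, with medians of -0.03 in Del/+, -0.01 in Dup/+ and -0.05 in Del/Dup and none called. Nlgn3, a neuroligin of both excitatory and inhibitory synapses, was at -0.12 ± 0.0555 in Del/+ and Nlgn2, the neuroligin of inhibitory synapses, at -0.12 ± 0.0630, -0.12 ± 0.0592 and -0.16 ± 0.0633 in Del/+, Dup/+ and Del/Dup. Nlgn1, which acts at excitatory synapses, was at 0.01 ± 0.0485 in Del/+. The fitted changes of Lrrtm2, Lrrtm3, Lrrtm4 and Il1rapl1 in Del/+ ran from -0.05 to 0.13. Of the remaining adhesion genes, the contactin Cntn4 was at 0.27 ± 0.117 in Del/+, with 62.4 and 50.0 CPM in replicates 2 and 4 against at most 41.7 in wt, and Cadm1 (SynCAM1) at -0.04 ± 0.0680.

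The cerebellins, low in these libraries, varied widely between animals of one genotype. Cbln2 (ENSRNOG00000013654) ranged from 10.5 to 20.7 CPM in wt with a median of 11.6. It was at 18.1, 36.5, 15.7 and 23.1 CPM in Del/+, at 13.8, 12.4, 19.3, 11.3 and 15.2 in Dup/+ and at 27.4, 14.4, 20.6 and 18.1 in Del/Dup. Replicates 4 and 5 of wt overlapped the Del/+ and Del/Dup values. The log2 fold change was 0.72 ± 0.234 in Del/+ (edgeR adjusted p = 0.117), 0.02 ± 0.231 in Dup/+ (0.991) and 0.52 ± 0.240 in Del/Dup (0.293).

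Cbln1 (ENSRNOG00000000010) ranged from 4.47 to 6.71 CPM in wt, with a median of 5.11. In Del/+ it was at 4.74, 15.0, 4.03 and 9.62 CPM, in Dup/+ at 4.38, 4.26, 6.45, 4.04 and 4.47 and in Del/Dup at 10.7, 4.13, 4.01 and 4.58. Thus Del/+ replicates 2 and 4 and Del/Dup replicate 2 stood above all wt libraries and the other Del/+ and Del/Dup libraries within or below the wt range. Its change in Del/+ was 0.66 ± 0.304 (edgeR adjusted p = 0.256) and in Del/Dup 0.15 ± 0.318 (0.839).

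Cbln4 (ENSRNOG00000004372) ranged from 6.85 to 12.5 CPM in wt, with a median of 8.12. Its libraries held 9.03, 7.06, 7.98 and 6.53 CPM in Del/+, 9.45, 7.13, 11.7, 7.00 and 7.52 in Dup/+ and 14.7, 7.22, 8.49 and 6.66 in Del/Dup, and all groups overlapped. The change in Del/+ was -0.18 ± 0.203 (edgeR adjusted p = 0.682).

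**Figure D3:**
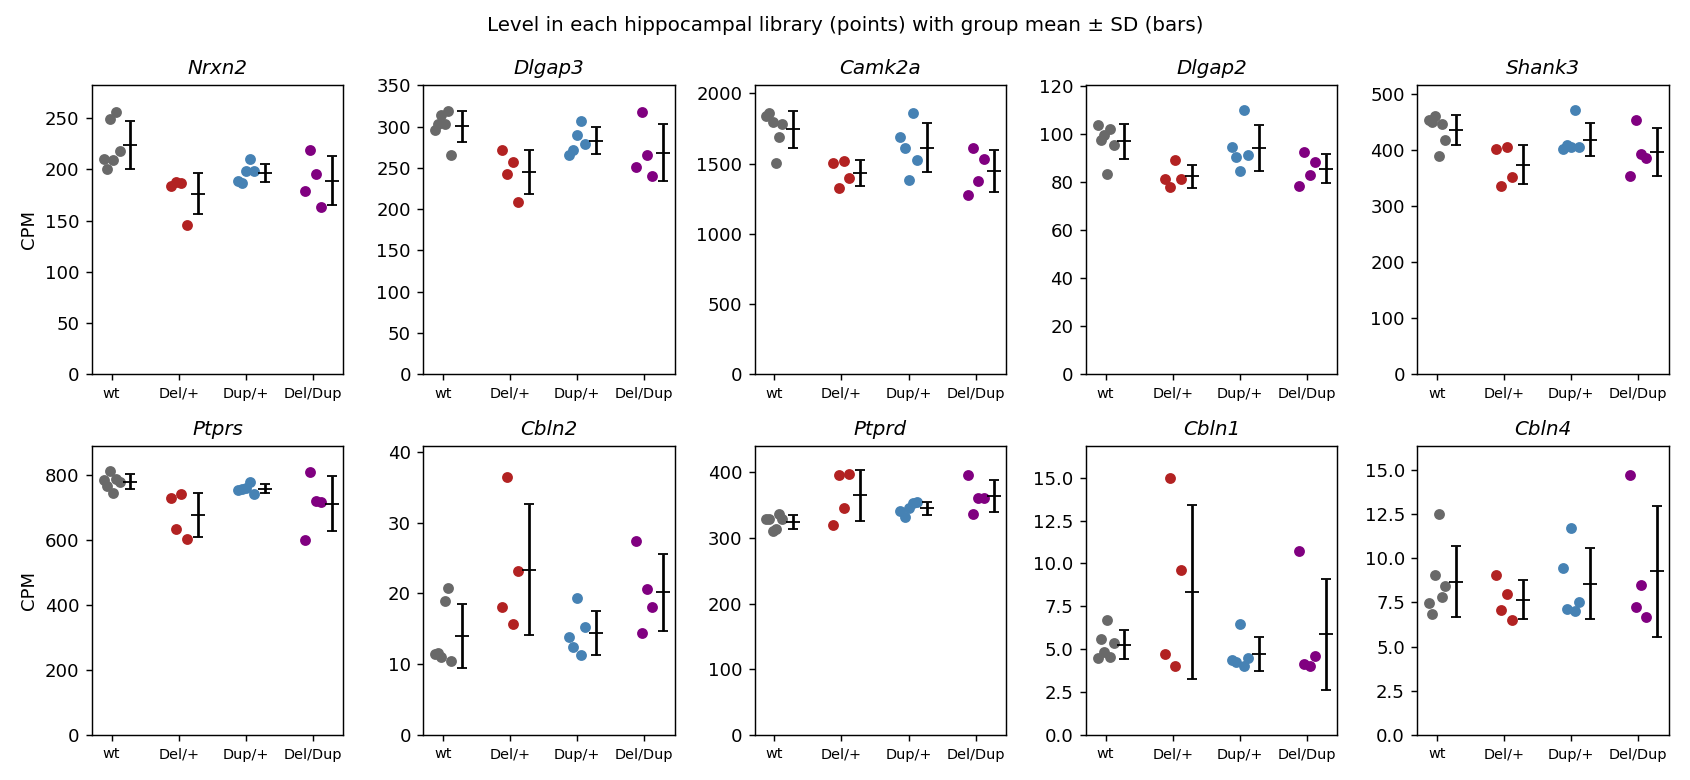
Level in CPM (vertical axis, from 0) of 10 genes in each library (points) by genotype (horizontal axis), with the group mean ± SD as bars (wt n = 6, Del/+ n = 4, Dup/+ n = 5, Del/Dup n = 4). The 4 Del/+ points of Nrxn2 and of Ptprs lie below all wt points, and for Cbln1 2 Del/+ libraries and 1 Del/Dup library stand above the rest.

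The median log2 difference from the wt mean over the 36 genes was between -0.08 and 0.06 in the wt libraries. In Del/+ it was -0.10, -0.13, -0.07 and -0.16, in Dup/+ -0.02, -0.09, -0.10, 0.05 and -0.05, and in Del/Dup -0.14, 0.02, -0.13 and -0.12. The ranges of wt and Del/+ overlapped in Del/+ replicate 3, and Del/Dup replicate 3 lay among the wt libraries. In Del/+ replicate 4, which had a share of multiply aligned reads as low as in wt, 20 of 36 members were below the wt range (20.5% of all genes) and 6 above (19.6%). In Del/+ replicates 1 to 3, 12, 16 and 10 members were below it (15.0, 21.9 and 14.0% of all genes) and 1, 7 and 2 above it (16.5, 20.9 and 14.4%). In the Del/Dup libraries, all with high shares, 19, 2, 16 and 13 members were below the wt range in replicates 2, 3, 4 and 5 (26.0, 14.2, 17.7 and 14.7% of all genes) and 9, 0, 2 and 2 above it (25.1, 14.0, 19.3 and 15.2%). For Dup/+ replicates 1 to 5, 4, 7, 15, 3 and 4 members were below it (16.2, 14.4, 17.8, 14.5 and 15.6% of all genes) and 4, 1, 4, 6 and 6 above it (16.8, 14.8, 18.7, 14.0 and 15.3%).

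With only the libraries up to 55% multiply aligned reads, a choice made after seeing the data that left Del/+ replicate 4 as the single Del/+ library, edgeR called 5 members in Del/+ against wt (1.85% of the 16132 genes tested there). Such a call sets 1 library, assumed to vary like the other groups, against wt, and no p is given for it here: that library had the lowest member median, -0.16, and a Nrxn2 level far below the other Del/+ libraries. The fitted differences were -0.53 for Dlgap3, -0.61 for Nrxn2, -0.37 for Ptprs, 0.29 for Ptprd and 0.87 for Cbln1.

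**Figure D4:**
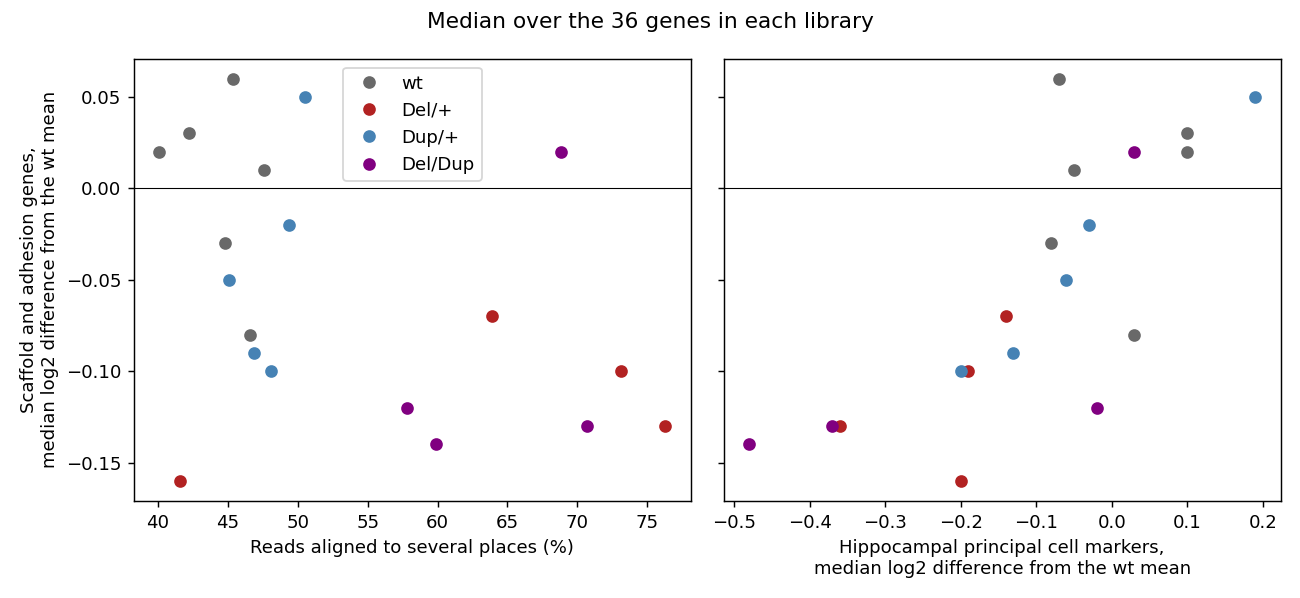
Median log2 difference from the wt mean over the 36 genes in each library (vertical axis) against the percentage of reads aligned to several places (left) and against the median log2 difference of 7 hippocampal principal cell markers (right), coloured by genotype. Del/+ replicate 4 has a share of 41.6% and the lowest member median, -0.16, and Del/Dup replicate 3 has a share of 68.8% and a member median of 0.02. The remaining Del/+ and Del/Dup libraries, at 57.8 to 76.3%, have member medians of -0.14 to -0.07, and the wt libraries, at 40.1 to 47.6%, of -0.08 to 0.06.

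Marker lists of other cells and regions were compared in the same libraries, and edgeR called 0 of their genes against wt in any genotype. Between other genotypes it called 1, the thalamic marker Prkcd, named after its values were seen, at 1.32 in Del/+ against Dup/+ (adjusted p = 0.0367). The median over 7 hippocampal principal cell markers was -0.19 in Del/+ against wt, with 6 of 7 below 0, 0.01 in Dup/+ and -0.24 in Del/Dup, and their summed level was 928 to 1237 CPM across wt libraries. The sums for Del/+ were 823 to 1027, for Dup/+ 803 to 1176, and for Del/Dup 744 to 979. By library, these markers were at -0.19, -0.36, -0.14 and -0.20 in Del/+ and at -0.48, 0.03, -0.37 and -0.02 in Del/Dup. Summed neuronal markers stood at 8556 to 9530 CPM for wt, 8761 to 9406 for Del/+, 8330 to 9340 for Dup/+, and 8184 to 8767 for Del/Dup. Their median log2 fold changes against wt were -0.02 in Del/+ (5 of 8 below 0), -0.03 in Dup/+ (6 of 8) and -0.09 in Del/Dup (7 of 8). The 6 oligodendrocyte markers had a median of 0.31 in Del/+ against wt and summed to 4995 to 6468 CPM in wt and 5882 to 8819 in Del/+ libraries. Dup/+ libraries had 5888 to 6754 and Del/Dup libraries 5806 to 7089. Thalamic and habenular markers summed to 31.8 to 43.7 CPM for wt, 61.1 to 71.1 for Del/+, 34.2 to 44.1 for Dup/+, and 34.3 to 55.9 for Del/Dup, although Pou4f1, which defines the habenula, was at or near 0. Choroid plexus markers summed to 3.53 to 34.7 CPM in wt and up to 1244 in Del/+, 403 in Dup/+ and 1201 in Del/Dup, with Otx2 at 0 in every library. The neocortical markers summed to 132 to 196 CPM for wt, 126 to 228 for Del/+, 122 to 136 for Dup/+, and 141 to 245 for Del/Dup. The median differences of astrocyte, microglia, interneuron and endothelial markers in Del/+ against wt were -0.12, -0.12, 0.09 and 0.09. The part of these cell and region differences in the values of the scaffold and adhesion genes was not tested.

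A wider list of 127 other synaptic scaffold, spine and adhesion genes gave similar values. Their median log2 fold change was -0.09 in Del/+, -0.02 in Dup/+ and -0.08 in Del/Dup, with 95, 79 and 94 genes below 0 (49.8, 50.8 and 49.7% of all genes). In Del/+, 45 were lower and 8 higher at an unadjusted p below 0.05 (9.68% and 8.77% of all genes), and in Del/Dup 32 and 5 (8.06% and 8.15% of all genes). Called in Del/+ against wt were 6 of the 127 (0.771% of all genes), 5 that fell and 1 that rose, and in Dup/+ and Del/Dup 0. The share over all genes was 0.295% without Del/+ replicate 2 and 0.334% without Del/+ replicate 4. When each of the 19 libraries was left out in turn, Mpp2 was still called in 18 fits, Nectin1 in 17, Lgi2 in 16, Islr2 in 14, Begain in 12 and Iqsec3 in 10. All 6 lost the call without Del/+ replicate 4 and all but Mpp2 without Del/+ replicate 2, with adjusted p of up to 0.164.

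Nectin1, an adhesion molecule of the junctions beside synapses, ranged from 95.7 to 146 CPM in wt and fell in Del/+, to 84.1, 68.0, 83.3 and 63.4 CPM. Its log2 fold change was -0.67 ± 0.122 (edgeR adjusted p = 0.00909) and the groups did not overlap. The scaffold Mpp2 fell by 0.23 on the log2 scale, from 78.7 ± 3.71 CPM (SD, n = 6) to 67.3 ± 3.07 (n = 4), with an adjusted p of 0.00955. Lgi2, a secreted ligand of ADAM22-family receptors, rose by 0.65 ± 0.128 (0.0180), with its highest values, 95.0 and 73.8 CPM, in Del/+ replicates 2 and 4. Islr2 (-0.37 ± 0.0792, 0.0317) and Begain, a partner of PSD-95 (-0.39 ± 0.0864, 0.0397), also fell, as did Iqsec3, an Arf exchange factor of inhibitory synapses and the sixth gene called (-0.28 ± 0.0623, 0.0409). Against Dup/+, Nectin1, Mpp2 and Lgi2 differed in Del/+ as well (adjusted p = 0.00221, 0.0340 and 0.0361; still called in 19, 13 and 12 of the 19 fits), and the same 3 were called in the test for any difference among genotypes, where Nectin1 was still called in 17 of 19 such fits, Lgi2 in 9 and Mpp2 in 8.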

How the data were processed

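RNA was measured in hippocampus of 19 male rats. Per the labels, TruSeq Stranded Total RNA Gold libraries with ribosomal RNA removal were read single-end for 50 bases (the molecule field names polyA RNA). The submitters' processing notes name bcl2fastq 2.17.1.14, HISAT2, HTSeq, rn6 and R 3.6. The authors deposited raw HTSeq counts per gene with symbols. The 5 summary lines were left out of library sizes. Of all counts in a library, 6.94 to 16.1% fell in no gene, 0.142 to 0.334% were ambiguous and 40.1 to 76.3% were for reads aligned to several places. A read with several places may have been counted more than once there. Uniquely aligned reads alone carry the values, and genes with close copies are uncertain. Total gene counts of 16191192 to 38760645 set the precision.

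All 19 libraries entered 1 edgeR 4.0.16 fit (R 4.3.3, limma 3.58.1) with a mean per genotype: filterByExpr, TMM scaling, glmQLFit and glmQLFTest, Benjamini-Hochberg adjustment over 15440 genes. CPM used TMM-scaled totals, and the log2 differences from the wt mean in single libraries used a prior count of 2. Log2 fold changes came from the fit with edgeR's default prior count. The SE is the size of the log2 fold change divided by the square root of F. The steps were tested on simulated data. DESeq2 1.42.0, other scalings, no filter, only the genotypes compared, terms for the multiply aligned share, a replicate block, wt replicate 5 as Dup/+ and leaving out each library were alternatives. Libraries of one group differed by 3.59 to 60.3 chi-square per degree of freedom, so none was a duplicate, and each came from 1 animal. The members and lists were chosen with earlier results of these data known. Values per library are given for members called, for the 8 members with the smallest p against wt under 0.01, and for the cerebellins. Of the wider list, up to 5 called genes per comparison are named, with values of single Del/+ libraries for Nectin1 and Lgi2. Iqsec3 is named beyond that rule, after its values were seen.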

Additional observations from a re-analysis of the deposited data

Results flagged for a closer look

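Values far from the rest of their group were sought in 48 groups of 4 to 6 libraries with Dixon's test, which chance alone passes in about 1 of 20, and 5 passed. Nrxn2 in Del/+ replicate 4 was at 146 CPM, below the 184 to 188 CPM of the other Del/+ libraries. Shank3 in Dup/+ replicate 4 was at 471 CPM, above the 401 to 409 CPM of the others. Cbln1 was at 6.45 CPM in Dup/+ replicate 3 against 4.04 to 4.47, and at 10.7 CPM in Del/Dup replicate 2 against 4.01 to 4.58. The median over the 36 genes was 0.02 in Del/Dup replicate 3 and -0.14 to -0.12 in the other 3 Del/Dup libraries. The cause of these values was not tested.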

How the results depend on the processing

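The member median against wt stayed below 0 in each genotype under every alternative run, while that of Del/+ against Del/Dup ran from -0.04 to 0.01 when single libraries were left out (0.01 without Del/Dup replicate 3). The number of members called in Del/+ against wt, 0 with edgeR, became 6 with DESeq2, 3 with a term for over 50% multiply aligned reads (which puts Dup/+ replicate 4 with the high libraries), and, chosen after seeing the data, 1 with the term at 55% and 5 with only the libraries up to 55%. The count over all genes, 119 with edgeR, was 655, 119, 80 and 299 in these settings. Leaving out single libraries gave 0 to 3 members: 3 without Del/Dup replicate 2 (Dlgap3, Nrxn2, Ptprs; 337 genes in all), and 2 each without Del/Dup replicate 3 (Dlgap3, Nrxn2; 281 genes), wt replicate 4 (Dlgap2, Camk2a; 152 genes) or Del/+ replicate 1 (Dlgap3, Ptprd; 261 genes), while the count over all genes fell as low as 46 without Del/+ replicate 2 and 52 without Del/+ replicate 4, with 0 members. In Del/+ against Dup/+ it became 3 with only the libraries up to 55% (163 genes in all, 121 with every library), and in the test among all genotypes 3 with DESeq2 (705 genes, 127 with edgeR) and 0 to 2 without single libraries (2, with 416 genes, without Del/Dup replicate 3). The member median moved to -0.19 in Del/+ and in Del/Dup with the term at 50%, to -0.18 in Del/Dup with the term at 55%, and to -0.14 in Del/+ against Dup/+ with either 55% choice, and leaving out 1 library kept it between -0.14 and -0.09 in Del/+, between -0.12 and -0.06 in Del/Dup (-0.06 without wt replicate 1) and between -0.06 (without Dup/+ replicate 4) and -0.02 (without wt replicate 5) in Dup/+. Within a genotype, the term at 50% sets only Del/+ replicate 4 and Dup/+ replicate 4 against the rest of their groups. At 55% it rests on Del/+ replicate 4 alone. The causes were not tested. Replicate numbers did not pair the samples: correlations of same-numbered libraries ran from -0.17 to 0.12 over 24 pairs, and 0 of 19 libraries correlated best with its own number. With the replicate block, 0 members were called in Del/+ (0.466% of all genes) and the median there was -0.12.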
